A study of Mus musculus with 18 samples.

Results

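Slc5a7, Wfdc2, Pax2, Gpr149, Cck, Slc14a1 and Padi4 are 7 of the 26143 genes measured by RNA sequencing in mouse esophagus and tongue, and they were chosen because their reads were high in wild type esophagus and near 0 in tongue with either mutation alone. The choice used the levels in the WT, p53 and E20 libraries, so those levels are given as a description and were not tested against each other. The level in tongue with both mutations was not named by the choice, and the question was which of the 7 genes were kept there. Tests of that level against the 3 other groups have a chosen level on 1 side: a choice for high WT values favours lower calls, and a choice for values near 0 in p53 and E20 favours higher calls. All 7 passed the filter on low values. Slc5a7, Wfdc2, Gpr149 and Slc14a1 would have passed without the WT libraries, and Pax2, Cck and Padi4 passed through them alone.

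All groups are labelled as squamous epithelium, which the markers given below do not bear out in every set. The WT group (n = 3) was wild type esophagus. The p53 group (n = 3) was tongue heterozygous for LSL-p53+/R172H, a gain of function allele of p53 behind a loxP-flanked stop cassette (LSL). The E20 group (n = 6) was tongue with the LSL-PIK3CAH1047R allele, an activating mutation of the PI3-kinase catalytic subunit. The E20/p53 group (n = 6) was tongue that carried both alleles together with K14-Cre, in which the keratin 14 promoter drives Cre recombinase in basal keratinocytes. The labels name a Cre only for E20/p53. They give no age, no sex, no tumour status and no word on whether libraries of a group came from separate animals, so a p-value here is set against the spread of the deposited libraries alone, and that spread may be technical. The series' title speaks of tumours initiated with 4NQO, a chemical carcinogen, and the labels do not say which libraries were exposed. WT is the only esophagus group, so tissue and genotype cannot be told apart in any comparison with WT.

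The 7 genes have separate roles. Wfdc2 encodes a secreted protein with whey acidic protein domains that glandular and airway epithelia make, and Cck encodes the gut hormone and neuropeptide cholecystokinin. Slc5a7 is the high-affinity choline transporter that supplies cholinergic nerve terminals with choline for acetylcholine. Slc14a1 is the urea transporter of erythrocytes, kidney and urothelium, and Gpr149 is an orphan G protein-coupled receptor. Pax2 is a paired-box transcription factor of the developing kidney, genital tract, eye and ear, and Padi4 is a nuclear peptidylarginine deiminase of granulocytes that converts arginine in histones to citrulline.

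The 250 bases before the RefSeq transcription start (GRCm38.p6, gene strand, 5′ to 3′) are printed for 4 genes that stand for the 4 outcomes described below. Wfdc2 stayed high in some E20/p53 libraries, Slc5a7 stayed low but present in all of them, Cck had no read in any of them, and Padi4 had reads in 1 set of them. Capitals mark matches, on either strand, to a GC box, a TATA box or an AP-1 site. The GC box was searched as GGGCGG. The TATA box was searched as TATAAA. The AP-1 site was searched as TGANTCA, and no match overlaps another. The windows are chr2:164562465-164562714 for Wfdc2 (plus strand), chr17:54299035-54299284 for Slc5a7, chr9:121495695-121495944 for Cck and chr4:140774204-140774453 for Padi4 (minus strand).
Wfdc2: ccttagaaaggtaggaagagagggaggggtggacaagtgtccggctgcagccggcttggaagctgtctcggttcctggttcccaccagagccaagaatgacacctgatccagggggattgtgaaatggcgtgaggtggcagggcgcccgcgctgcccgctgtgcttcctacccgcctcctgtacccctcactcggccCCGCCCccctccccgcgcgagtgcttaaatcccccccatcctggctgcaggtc
Slc5a7: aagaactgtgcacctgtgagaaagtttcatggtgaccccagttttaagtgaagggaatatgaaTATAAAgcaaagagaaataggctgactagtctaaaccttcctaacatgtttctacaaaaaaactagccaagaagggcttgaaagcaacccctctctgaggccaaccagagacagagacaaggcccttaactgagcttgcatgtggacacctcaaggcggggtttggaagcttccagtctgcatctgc
Cck: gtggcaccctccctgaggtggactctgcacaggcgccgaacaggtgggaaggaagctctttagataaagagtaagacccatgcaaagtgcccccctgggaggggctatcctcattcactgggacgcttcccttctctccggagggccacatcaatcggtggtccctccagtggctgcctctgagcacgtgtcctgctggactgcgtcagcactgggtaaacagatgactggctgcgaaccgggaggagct
Padi4: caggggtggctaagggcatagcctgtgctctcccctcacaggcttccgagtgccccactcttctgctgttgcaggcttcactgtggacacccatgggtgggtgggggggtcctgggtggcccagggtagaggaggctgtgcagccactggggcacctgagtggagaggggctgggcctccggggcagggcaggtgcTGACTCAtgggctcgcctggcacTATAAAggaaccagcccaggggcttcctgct
None of the 3 motifs was found in all 4 windows. Wfdc2 holds the GC box, which 32.7% of all 32851 RefSeq promoter windows of this length hold. Slc5a7 and Padi4 hold the TATA box (12.4% of windows), and Padi4 also holds the AP-1 site (6.75%). Their base composition differed as well, with 14 CG dinucleotides in Wfdc2, 9 in Cck, 3 in Padi4 and 1 in Slc5a7, against a median of 6 (quartiles 2 and 16) over all windows. Of the 3 Pax2 starts, 2 hold a GC box, and their CG counts were 5, 20 and 25. These matches describe letters and not binding. RefSeq windows are described for 5 of the 7 genes. Gpr149 had no window among those searched, and the window of Slc14a1 is not reported here.

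All 7 genes are protein-coding. On mm10 with GENCODE M21, Slc5a7 lies on chr17:54273590-54299034 on the minus strand, Wfdc2 on chr2:164562413-164568510 on the plus strand, and Pax2 on chr19:44756045-44837871 on the plus strand. Gpr149 lies on chr3:62529077-62605140, Cck on chr9:121489824-121495694, Slc14a1 on chr18:78100091-78142119 and Padi4 on chr4:140745865-140774236, each on the minus strand. Pax2 is the single member of the 7 that overlaps other annotated genes, and 3 of them lie in its span (Gm20395 and 1700039E22Rik on the other strand and Mir6405 on the same strand). The counting of strand is not given in the sources used here, so reads of Pax2 and of those genes cannot be told apart.

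Libraries held 14592044 to 18176060 reads. Levels are given in CPM, which is reads per 1000000 of the authors' scaled library total, and 1 read was worth about 0.0625 CPM. The 18 libraries fall into 6 sets of 3 that differ from each other across many genes: WT, p53, E20 1 to 3, E20 4 to 6, E20/p53 1 to 3 and E20/p53 4 to 6. What separates libraries 1 to 3 from 4 to 6 within a genotype is not labelled, and no test was made between such sets. Results for E20/p53 are therefore given for all 6 libraries and for each set. The squamous label was checked against 16 squamous markers. In WT their summed level was 110.2 to 113 CPM, Krt14 had 13.4 CPM and Krt5 0.0784 CPM, and the esophageal and adhesion genes Krt4, Crnn, Dsg3 and Ly6d had 0 reads. Sox2 at 37.0 CPM and Pax9 at 33.6 CPM, transcription factors of the squamous foregut, were the highest of the list in WT. The 15 simple and glandular epithelium markers summed to 339 to 352 CPM in WT, of which Krt18 made 228 CPM and Krt8 41.5 CPM. In p53, E20 4 to 6 and E20/p53 4 to 6 the squamous list summed to at most 8.73 CPM, and fibroblast markers summed to 9328 CPM or more, so the data go against the label in those 3 sets. Fibroblast markers also summed above the squamous list in E20 1 to 3 (17845 to 19932 against 120.1 to 139.9 CPM), so the label is not borne out there either. In WT they summed to 1582 to 1707 CPM, but Col1a2 alone made 1344 CPM of that. Of the 11 fibroblast markers, 8 had at least 1 CPM in WT. The sums alone therefore do not decide the label in WT, where Krt4, Crnn, Dsg3 and Ly6d do not bear it out. Only in E20/p53 1 to 3 was the squamous sum the higher (829 to 842 against 331 to 356 CPM).

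**Figure D1:**
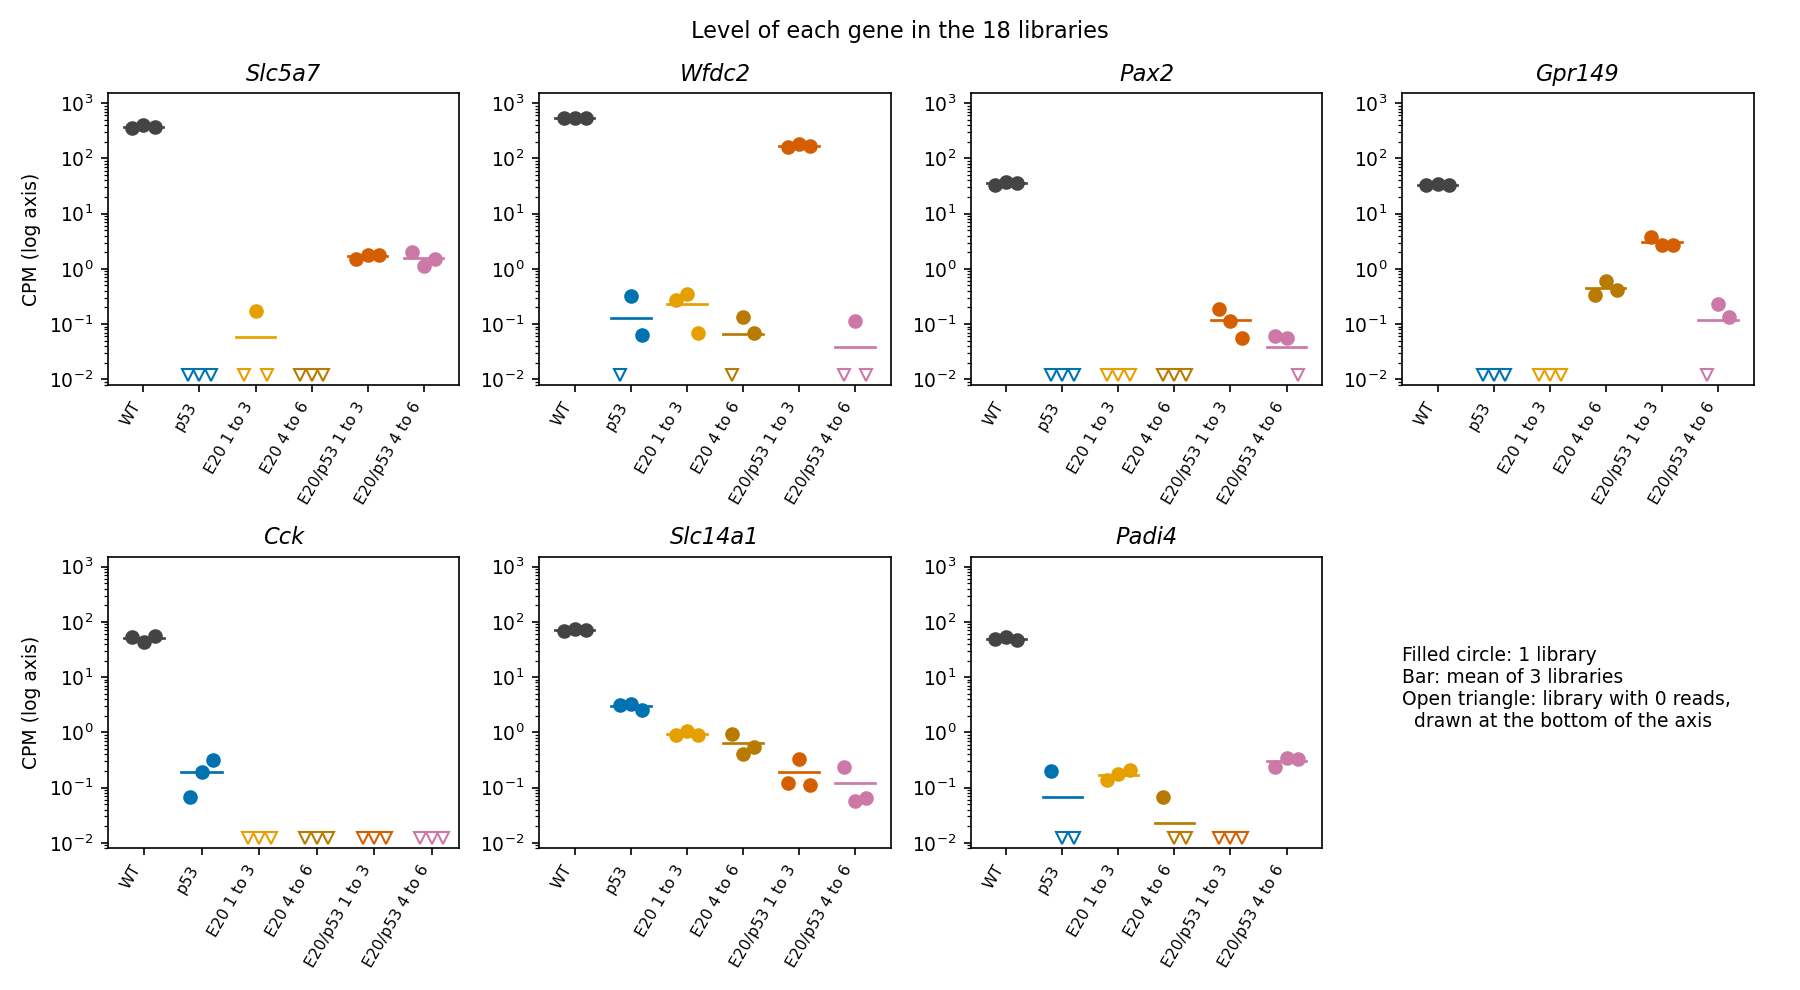
Level of each of the 7 genes in CPM (log axis) in every library, by set; filled circles are libraries, bars are means of 3 libraries and open triangles are libraries with 0 reads, drawn at the bottom of the axis. Wfdc2 stands at 159.8 to 180.3 CPM in E20/p53 1 to 3 and at 0 to 0.114 CPM in E20/p53 4 to 6, while Cck has no read in any E20 or E20/p53 library.

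In WT the 7 genes spanned a wide range of levels with little spread between libraries. Set per length, in CPM per kilobase of exon, the order was Wfdc2 (472 ± 7.07, SD, n = 3), Slc5a7 (66.7 ± 5.21), Cck (38.9 ± 5.11), Slc14a1 (18 ± 0.845), Padi4 (10.2 ± 0.68), Gpr149 (7.79 ± 0.245) and Pax2 (6.52 ± 0.386). Each neighbour in that order differed by more than the SD of either.

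Among the secreted proteins, Wfdc2 was the 1 gene of the 7 that E20/p53 libraries held at 10% of the WT level or more. In WT it had 538, 546 and 530.4 CPM, and in p53 it had 0, 0.326 and 0.063 CPM. In E20 it ranged from 0 to 0.351 CPM. In E20/p53 libraries 1 to 3 it had 159.8, 180.3 and 170.3 CPM, and in libraries 4 to 6 it had 0, 0.114 and 0 CPM. The 6 double mutant libraries thus split without overlap into 3 at high level and 3 with 2 reads in all, and the mean of libraries 1 to 3 was 31.6% of the WT mean. Pooled over reads, WT was 3.16-fold higher than libraries 1 to 3 (95% exact interval 3.08 to 3.24, counting error only, since PCR reads are not independent molecules).

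Cck had 54.2, 43.1 and 55.1 CPM in WT. In p53 it had 1, 3 and 5 reads, or 0.067, 0.195 and 0.315 CPM, and in all 12 E20 and E20/p53 libraries it had 0 reads. Against a floor of 3 reads over the group, the WT level was at least 1713-fold higher than in E20/p53 and at least 1533-fold higher than in E20. Cck is the 1 gene of the 7 with no read in either group that carries the PIK3CA allele.

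Slc5a7 was found at a low level in every double mutant library. It had 349, 408 and 373 CPM in WT and 0 reads in every p53 library. In E20, 5 libraries had 0 reads and library 2 had 3 reads (0.175 CPM). In E20/p53 it had 1.48, 1.79, 1.8, 2.02, 1.14 and 1.51 CPM, with no split between libraries 1 to 3 (1.69 ± 0.182, SD, n = 3) and 4 to 6 (1.56 ± 0.446). These levels were 0.449% and 0.414% of WT, and pooled over reads WT was 232-fold higher than E20/p53 (199 to 272). The same E20/p53 level was at least 25-fold above the floor in p53, and was 49.2-fold above E20 (16.6 to 241, on 3 reads in E20).

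Slc14a1 had reads in every library, and its levels in tongue were ordered p53, E20 and E20/p53 from high to low. It had 68.3, 75.1 and 72 CPM in WT and 3.08, 3.26 and 2.52 CPM in p53. In E20 it had 0.886, 1.05, 0.885, 0.948, 0.400 and 0.549 CPM, and in E20/p53 it had 0.123, 0.336, 0.112, 0.238, 0.0568 and 0.0658 CPM. No E20/p53 library reached the lowest E20 library, and no E20 library reached the lowest p53 library. Pooled over reads, E20 was 5.03-fold above E20/p53 (2.90 to 9.26) and p53 was 18.7-fold above it (11.1 to 33.6). In E20/p53 libraries 1 to 3 and 4 to 6 Slc14a1 stood at 0.265% and 0.167% of WT.

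Gpr149 had 32.4, 34.5 and 33.3 CPM in WT and 0 reads in every p53 library. In E20, libraries 1 to 3 had 0 reads and libraries 4 to 6 had 0.338, 0.601 and 0.412 CPM. In E20/p53, libraries 1 to 3 had 3.82, 2.75 and 2.75 CPM and libraries 4 to 6 had 0, 0.227 and 0.132 CPM. Its high set in E20/p53 was the same as that of Wfdc2, but its level there was 9.30% of WT, just under the 10% that was set as the limit between partly kept and not kept. Pooled over reads, WT was 10.8-fold above libraries 1 to 3 (9.21 to 12.8).

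Pax2 had 33.1, 37.3 and 35.4 CPM in WT and 0 reads in all 9 p53 and E20 libraries. In E20/p53 it had 0.185, 0.112, 0.0562, 0.0596, 0.0568 and 0 CPM, which is 8 reads in 6 libraries. Over reads, WT was 448-fold above E20/p53 (227 to 1039), and the E20/p53 level was at least 2.39-fold above the floor in E20 and at least 1.21-fold above that in p53.

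Padi4 had 48.8, 52.7 and 46.2 CPM in WT. In p53 it had 0.201, 0 and 0 CPM, and in E20 it had 0.136, 0.175, 0.204, 0.0677, 0 and 0 CPM. In E20/p53, libraries 1 to 3 had 0 reads and libraries 4 to 6 had 0.238, 0.341 and 0.329 CPM, or 15 reads. Its reads thus fell in the E20/p53 set where Wfdc2 and Gpr149 were low, but 0 and 15 reads are too few to read a difference from. WT was at least 852-fold higher than libraries 1 to 3, and 163-fold higher than libraries 4 to 6 (98.6 to 292).

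**Figure D2:**
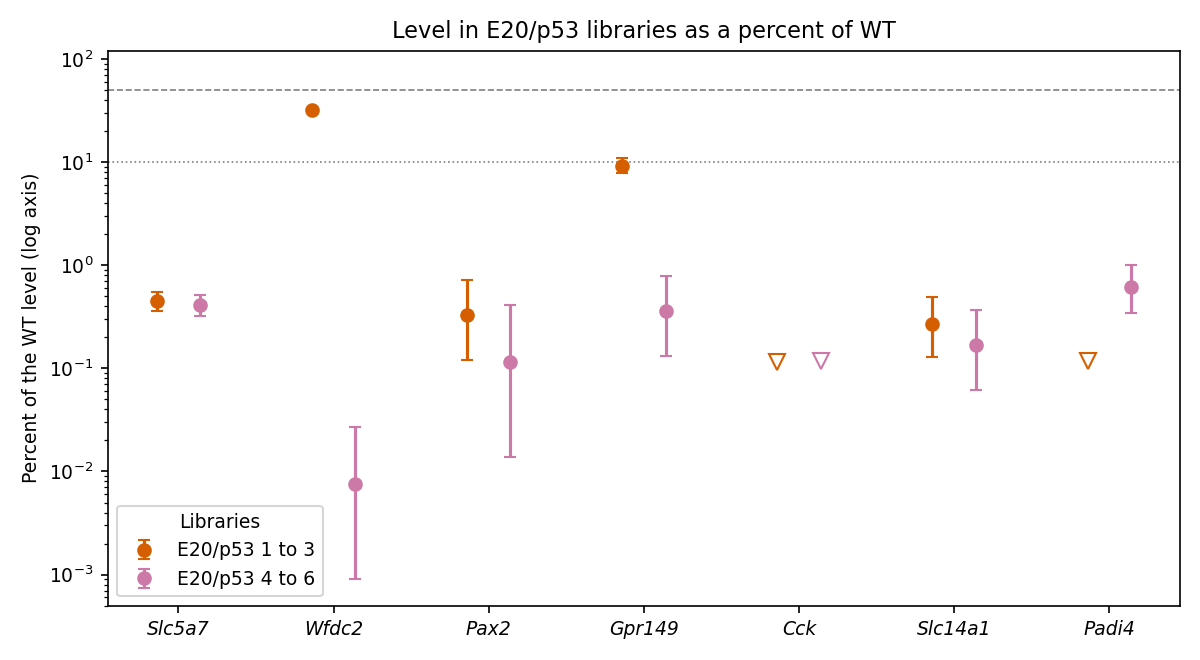
Level in E20/p53 libraries 1 to 3 (orange) and 4 to 6 (pink) as a percent of the WT level (log axis), pooled over the reads of 3 libraries, with exact 95% counting intervals; open triangles are upper limits for 0 reads against a floor of 3 reads. The dashed and dotted lines mark 50% and 10%. Wfdc2 at 31.7% is the 1 point above 10%, Gpr149 in libraries 1 to 3 lies just below, and the other points lie below 1%.

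A gene was called kept where a set held at least 50% of the WT mean, partly kept from 10%, and not kept below that. In E20/p53 1 to 3, 0 of the 7 genes were kept, 1 (Wfdc2) was partly kept and 6 were not, of which 5 stood under 1%. In E20/p53 4 to 6 all 7 stood under 1%.

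With all 6 E20/p53 libraries in the fit, all 7 genes were lower than in WT at an adjusted p under 0.05 (limma on the deposited log2 values, Benjamini-Hochberg over 15235 genes), where 21.6% of all tested genes were called lower and 26.5% higher. Each also lay without overlap below WT, as 23.8% of tested genes did, while 26.7% lay above. The WT level chose the genes, so nothing is read from these counts. For the same reason the differences and adjusted p-values against WT that follow describe size and spread and are not evidence of a difference. The fitted differences (log2, with SE) ran from -9.74 ± 0.29 for Cck (adjusted p = 2.4e-13) through -8.53 ± 0.37 for Slc14a1, -8.41 ± 0.76 for Padi4, -8.12 ± 0.33 for Pax2 and -7.82 ± 0.35 for Slc5a7 to -5.61 ± 1.20 for Gpr149 (adjusted p = 0.00106). Wfdc2 had -7.13 ± 2.41 (adjusted p = 0.0227), with the large SE that its split between the sets gives. Its call was lost without any 1 of WT libraries 1, 2 and 3 (adjusted p 0.0623, 0.0629 and 0.0619). With E20/p53 libraries 1 to 3 alone, Wfdc2 stayed lower than WT by a smaller difference, -1.66 ± 0.64 (adjusted p = 0.0371). All 7 genes were called lower in that fit (26.9% of tested genes), and all 7 with libraries 4 to 6 alone (30.6%). For genes with 0 or few reads a fitted log2 difference depends on the authors' pseudocount of about 1 read, and the folds and bounds over reads given above do not.

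Against E20, 2 of the 7 genes were called higher in E20/p53 (23.0% of all tested genes were) and 1 was called lower (19.6%). The E20 level near 0 was part of the choice, so nothing is read from the count of higher calls. For that reason the differences and adjusted p-values of higher calls against E20 describe size and spread and are not evidence of a difference. Slc5a7 rose by 4.31 ± 0.28 on the log2 scale (adjusted p = 8.9e-09) and lay above E20 in 6 of 6 libraries, as 11.3% of tested genes did in that direction. The size of that difference rests on 3 reads in E20 and on the pseudocount. It ran from 1.34 to 5.15 over the alternatives other than set means. Slc14a1 fell by 2.07 (log2 difference -2.07 ± 0.30, adjusted p = 4.3e-05) and lay below E20 in 6 of 6 libraries (11.2% of tested genes). Pax2 makes up the count of 2 (0.94 ± 0.27, adjusted p = 0.0111), but that value rests on 8 reads against 0 and on the pseudocount, so no difference is read from it. Its adjusted p was 0.118 with a filter of 5 CPM, 0.164 with log2 of CPM plus 1 and 0.05 with the compared groups alone, and the difference was under 2-fold. Wfdc2 (4.41 ± 1.97, adjusted p = 0.082), Gpr149 (1.92 ± 0.98, adjusted p = 0.125) and Padi4 (0.03 ± 0.62, adjusted p = 0.976) did not pass, and Cck had 0 reads in both groups. Wfdc2 passed when E20/p53 library 4, 5 or 6 was left out (adjusted p 0.0239, 0.041 and 0.025), and Gpr149 when library 4 was (0.0233). With libraries 1 to 3 alone, 4 of the 7 were called higher (33.7% of tested genes): Wfdc2 by 9.87 ± 0.55 (adjusted p = 2.0e-09), Slc5a7 by 4.38, Gpr149 by 4.11 ± 0.73 (adjusted p = 2.0e-04) and Pax2 by 1.34. The Pax2 value rests on 6 reads against 0, so no difference is read from it. In that fit 2 were called lower (31.4%), Slc14a1 at -1.82 and Padi4 at -1.29 (adjusted p = 0.0465). With libraries 4 to 6 alone, 2 were called higher (29.2%), Slc5a7 by 4.24 and Padi4 by 1.35 (adjusted p = 0.0466), and 1 lower (23.8%), Slc14a1 at -2.31. Padi4 was therefore on opposite sides of E20 in the 2 fits, on 0 and 15 reads in E20/p53 against 9 in E20, too few to read a difference from, while Slc5a7 and Slc14a1 kept their direction in both.

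Against p53, 3 of the 7 genes were called higher (12.9% of all tested genes) and 2 lower (12.9%). The p53 level near 0 was part of the choice, and Slc5a7, Pax2 and Gpr149 had 0 reads there, so nothing is read from the count of higher calls. The differences and adjusted p-values of higher calls against p53 are likewise descriptions and not evidence of a difference. Slc5a7 rose by 4.67 ± 0.35 (adjusted p = 1.0e-07), with 6 of 6 libraries above p53 (15.9% of tested genes lay so). The size of that difference rests on 0 reads in p53 and on the pseudocount. It ran from 1.38 to 5.65 over the alternatives other than set means. Slc14a1 fell by 3.95 (-3.95 ± 0.37, adjusted p = 1.4e-06), without overlap (16.6% of tested genes). Cck is the other lower call (-2.0 ± 0.29, adjusted p = 1.4e-04), also without overlap, but it rests on 9 reads in p53 against 0 and on the pseudocount, so no difference is read from it. Gpr149 was called higher by 3.39 ± 1.20 (adjusted p = 0.0471) and Pax2, on 8 reads against 0, by 0.96 ± 0.33 (adjusted p = 0.0435). Both calls were lost without any 1 of the p53 libraries (adjusted p 0.105, 0.115 and 0.118 for Pax2 and 0.117, 0.123 and 0.12 for Gpr149). They were also lost without any 1 of E20/p53 libraries 1, 2 and 3 (0.0762, 0.0814 and 0.0557 for Pax2 and 0.091, 0.0903 and 0.0904 for Gpr149). Leaving out p53 library 1, 2 or 3 also took the 1960 genes called higher to 1111, 1117 and 1176. Wfdc2 (4.69 ± 2.41, adjusted p = 0.161) and Padi4 (0.48 ± 0.76, adjusted p = 0.664) did not pass. With E20/p53 libraries 1 to 3 alone Wfdc2, Gpr149, Slc5a7 and Pax2 were called higher (31.3% of tested genes) and Slc14a1 and Cck lower (32.6%). With 4 to 6 alone Slc5a7 and Padi4 were higher (17.9%) and Slc14a1 and Cck lower (16.2%). The Pax2 call in libraries 1 to 3 rests on 6 reads against 0 in p53. Cck had 0 reads against 9, and Padi4 in libraries 4 to 6 had 15 against 3. Pax2, Cck and Padi4 passed the filter through WT alone, so no difference is read from those calls. The 2 comparisons with the single mutants share the E20/p53 libraries. When each set of 3 libraries was averaged to 1 value, so that 6 values entered the fit, limma called 0 genes lower than WT, 0 higher than E20 and 0 higher than p53, the 7 genes included, and at an unadjusted p under 0.05 it counted 587 genes lower than WT, 340 higher than E20 and 99 higher than p53.

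The same profile was then sought in the whole table, with the lowest WT library at 32.4 CPM or more and every p53 and E20 library at 3.26 CPM or less, which are the limits the 7 genes set (Gpr149 and Slc14a1 lie just inside them). It gave 28 genes, the 7 included. Of the other 21, 7 were kept in E20/p53 1 to 3, 4 partly kept and 10 not, with a median of 14.4% of WT against 0.334% for the 7 genes. Kept were Id4 (677% of WT), Rapgef5 (278%), Pax9 (154%), Sox2 (145%), Spint2 (66.7%), Ppargc1a (50.9%) and 2200002D01Rik (50.5%). Partly kept were Notum (43.8%), Gdpd2 (26.3%), Ano1 (16.8%) and Wnk4 (14.4%), close to Wfdc2 at 31.6%. Krt18 (3.92%) and Krt8 (0.672%), the keratins of simple epithelium, and the homeobox genes Hoxc4, Hoxc5 and Hoxc6 were not kept, as the other 6 of the 7 genes were not. In E20/p53 4 to 6, 20 of the 21 were not kept, with a median of 0.573% against 0.167% for the 7. The 7 were picked from this profile, so the difference between the medians was not tested.

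**Figure D3:**
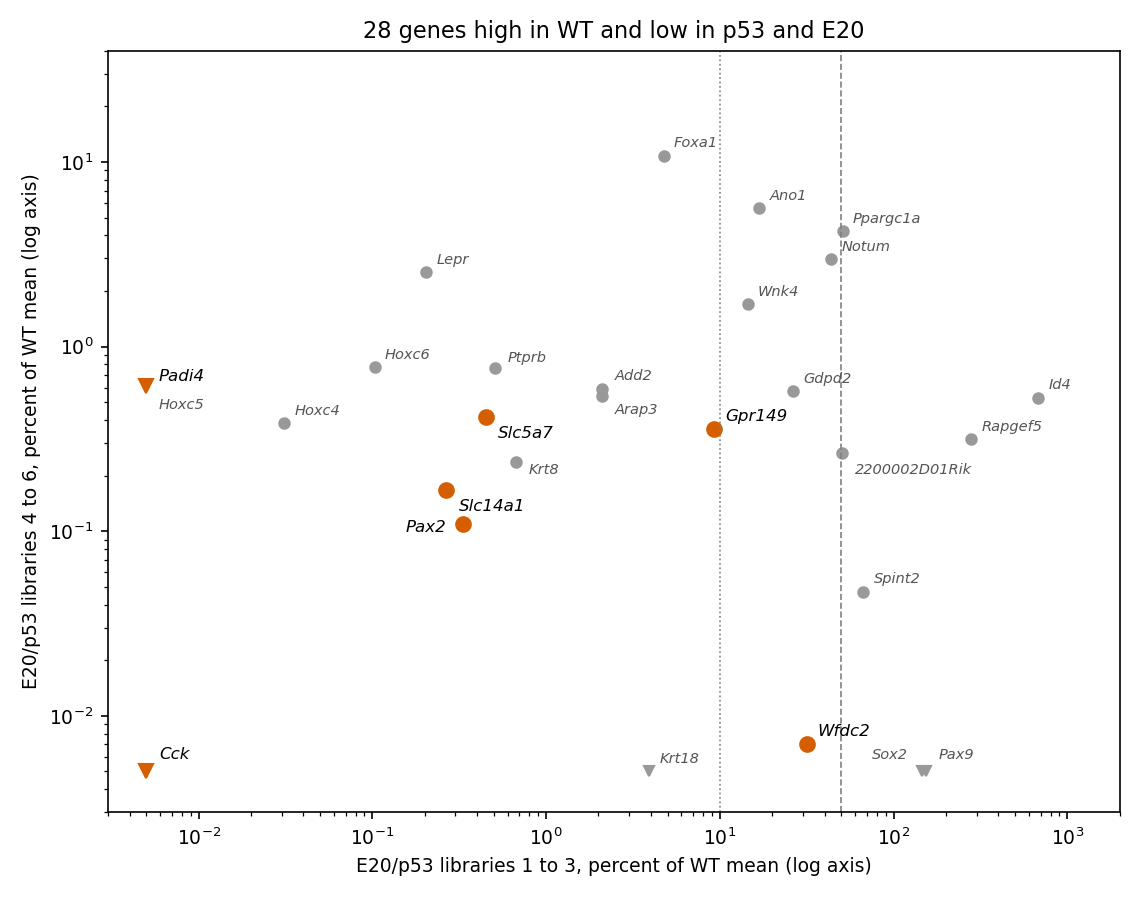
Level in E20/p53 libraries 1 to 3 (x axis) and 4 to 6 (y axis) as a percent of the WT mean (log axes) for the 28 genes with the same profile in WT, p53 and E20; the 7 genes are orange, the other 21 grey, and the dotted and dashed lines mark 10% and 50%. Triangles have 0 reads in at least 1 of the 2 sets and are drawn at 0.005, where Padi4 covers Hoxc5. Wfdc2 lies with the partly kept genes on the x axis, and no gene exceeds 50% on the y axis.

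The sets that held Wfdc2 also differed in cell type markers, and in these bulk libraries fewer cells of a type and less RNA per cell cannot be told apart. The 16 squamous markers summed to 829 to 842 CPM in E20/p53 1 to 3, with none of them at 0 reads, and to 3.86 to 5.13 CPM in E20/p53 4 to 6, with 9 at 0 reads. Krt14 was 483 CPM in the first set and 0.199 CPM in the second, Krt5 was 127 CPM and 0. Fibroblast markers moved the other way, from 331 to 356 CPM in E20/p53 1 to 3 to 20356 to 22346 CPM in 4 to 6. They summed to 1582 to 1707 CPM in WT, 9328 to 10101 CPM in p53 and 17845 to 20378 CPM in E20, so every p53 and E20 library, where the 7 genes were low by choice, had a higher fibroblast sum than WT. The same squamous list summed to 120.1 to 139.9 CPM in E20 1 to 3, where Wfdc2 was at most 0.351 CPM, and Krt5 and Krt14 were lower in WT, where Wfdc2 was highest. The simple and glandular list, at 339 to 352 CPM in WT, was 39.7 to 42.1 CPM in E20/p53 1 to 3, 13.4 to 15.4 CPM in E20, 8.32 to 12.1 CPM in p53 and 4.26 to 5.2 CPM in E20/p53 4 to 6. Its order of the sets at the top was that of Wfdc2. Skeletal muscle markers summed to 6.7 to 7.13 CPM in WT and 5.17 to 5.6 CPM in E20/p53 1 to 3, against 669.8 to 2264 CPM in the other tongue sets. In E20 most of that sum was Des, at 554 CPM in libraries 1 to 3 and 640.1 CPM in 4 to 6. Chrna1 and Pax7 made most of the rest, and the set means of Myod1 and Myog were at most 0.36 CPM. Myod1 was 153 CPM in p53 and 9.46 CPM in E20/p53 4 to 6. The part of these cell types in the levels of the 7 genes was not tested.

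**Figure D4:**
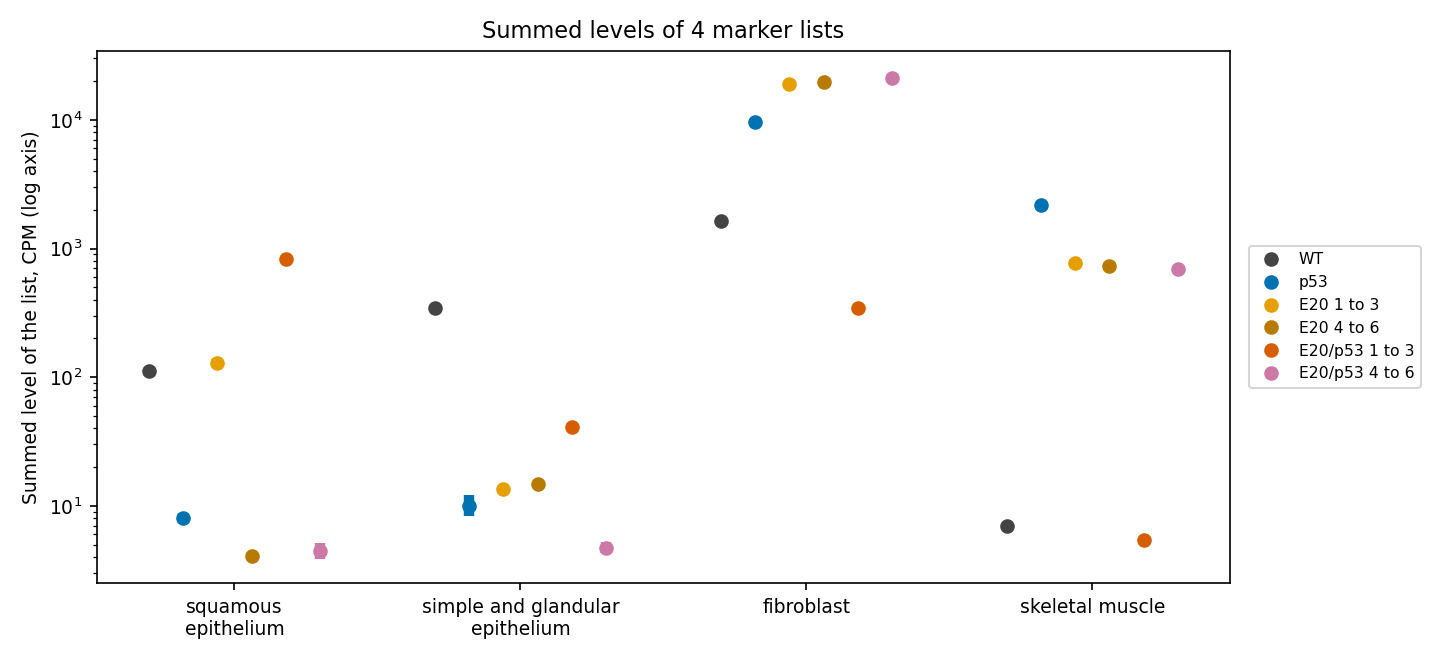
Summed level (CPM, log axis) of 4 marker lists in the 6 sets; points are the geometric middle of the lowest and highest of 3 libraries and bars run from the lowest to the highest, mostly within the point. E20/p53 1 to 3 has the highest squamous level (829 to 842 CPM) and WT the highest simple and glandular level (339 to 352 CPM); both have low skeletal muscle levels.

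Defining genes of the cell types for which the single genes are known were at or near 0 in WT. For Slc5a7, the acetylcholine genes Chat and Slc18a3 had 0 reads in all 18 libraries, and of 12 neuron markers 5 had 0 reads in WT, Elavl3 and Elavl4 among them. The list summed to 22.5 to 25.7 CPM in WT, most of it Stmn2 at 15.3 CPM, and was higher, 134 to 141 CPM, in E20/p53 4 to 6. Glia markers summed to 11.5 to 11.9 CPM in WT. For Cck, the endocrine genes Chga, Neurod1 and Pcsk1 had 0 reads in WT and the list of 9 summed to 2.05 to 2.82 CPM there. For Padi4, the leukocyte list summed to 16.8 to 18.7 CPM in WT, of which Cd68 made 16.2 CPM, and the granulocyte gene S100a9 had 0 reads. For Slc14a1, the uroplakin genes Upk1b and Upk2 had 0 reads in WT, while Pparg at 49.1 CPM made most of the 54.4 to 59.4 CPM of the urothelium list. For Pax2 and Wfdc2, the kidney and genital tract list summed to 68.8 to 69.7 CPM in WT, where Ovgp1 had 28.4 CPM but Umod, Kap, Cdh16 and Cldn10 had 0 reads.

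The other genes of each family are given by counts. All counts are of tested genes other than the 7, at an adjusted p under 0.05 by limma. They stand beside the shares over all tested genes, which were 21.6% lower and 26.5% higher against WT, 19.6% lower and 23.0% higher against E20, and 12.9% in each direction against p53. Of 8 peptidylarginine deiminase genes and substrates, 6 were lower than in WT and none higher, with a median log2 difference of -2.42 against 0.05 over all tested genes. Padi3 fell by 4.78 (-4.78 ± 0.60, adjusted p = 6.2e-06), Padi2 by 4.73 (-4.73 ± 1.10) and Padi1 by 4.52 (-4.52 ± 0.44), and Vim, a cytoskeletal substrate, by 0.63 (-0.63 ± 0.20). Padi2 was 29.0 CPM in WT and 5.40 CPM in E20/p53 1 to 3, where Padi4 had no read. Against E20, 3 of the 8 were higher, Padi2 among them (2.76 ± 0.90), and 1 lower, and against p53 none was higher and 1 was lower.

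Of 6 urea and water transport genes, 5 were lower than in WT and none higher (median -3.10). The water channels Aqp5 (-3.36 ± 0.60, adjusted p = 2.1e-04), Aqp1 (-1.44 ± 0.25), Aqp2 (-3.27 ± 0.96) and Aqp3 (-3.74 ± 0.78) fell. Aqp5 was 285 CPM in E20/p53 libraries 1 to 3 and 42.4 CPM in libraries 4 to 6, from 1130.4 CPM in WT. Against E20, Aqp5 (-1.92) and Aqp1 (-1.52) fell and none of the 6 rose, and against p53 Aqp1 rose by 0.90 and none fell. Slc14a1 and Aqp1 thus took opposite directions against p53.

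Of 5 gut hormone and neuropeptide genes tested, 3 were lower than in WT and none higher (median -0.93). Calca, the calcitonin gene-related peptide gene, fell by 5.13 (-5.13 ± 0.50, adjusted p = 3.5e-07), and the prohormone-processing enzymes Cpe (-1.14 ± 0.31) and Pam (-0.93 ± 0.11) fell. Cpe was 599 CPM in E20/p53 1 to 3. Against E20, Cpe rose by 0.86 and Pam fell by 0.37 (-0.37 ± 0.09), and against p53 none of the 5 passed. The cholecystokinin receptor gene Cckbr had 0 reads in all 18 libraries.

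Of 7 cholinergic genes tested, 3 were lower than in WT and 1 was higher (median -0.27), on 7 genes too few to set apart from the shares of 21.6% and 26.5% over all tested genes. The choline kinase gene Chka fell by 1.14 (-1.14 ± 0.07, adjusted p = 1.5e-09), and the choline transporter-like genes Slc44a2 (-0.63 ± 0.13) and Slc44a1 (-0.20 ± 0.07) fell. Bche, a cholinesterase gene, rose by 4.76 ± 0.75. Against E20, 4 of the 7 were higher and 1 lower, with Ache at 2.40 ± 0.67, and against p53, 2 were higher and 2 lower. Slc44a2 was 299 CPM in WT, 178 CPM in E20/p53 libraries 1 to 3 and 209 CPM in libraries 4 to 6.

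Of 16 PAX genes and partners tested, 5 were higher than in WT and 4 lower (median -0.74). Pax7 (4.57 ± 0.93), a gene of muscle precursors, and Gdnf (2.54 ± 0.31) rose, and Pax3 fell (-4.43 ± 1.41, adjusted p = 0.0159). The E20/p53 sets differed, with Pax3 at 0.153 CPM in libraries 1 to 3 and 18.6 CPM in 4 to 6, from 42.6 CPM in WT. Pax7 had 0.368 and 7.64 CPM in those sets, from 0.0207 CPM in WT. Against E20, 6 were higher and 5 lower, and against p53, 2 were higher and 5 lower, with Pax7 lower in both. Pax8, the closest kin of Pax2 together with Pax5, had a log2 difference from WT of -1.35 ± 0.62 and did not pass (adjusted p = 0.0826). Of the WFDC and related inhibitor genes, 1 of 9 was tested, the protease inhibitor gene Slpi, and it passed in none of the 3 comparisons. Slpi, like Wfdc2, was higher in libraries 1 to 3 than in 4 to 6 of E20/p53, with 123 CPM in WT, 279.9 CPM in the first E20/p53 set and 5.90 CPM in the second, but was 33.1 CPM in p53, where Wfdc2 was near 0.

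The genes whose log2 value followed each of the 7 most closely over the 18 libraries (Pearson r, a description, since the libraries of a set lie together) fell into a few groups. Pax2 was followed by Krt8 (r = 0.986) and Rsph6a (0.985), both with under 0.3 CPM outside WT. Padi4 was followed by Hoxc5 (0.980) and Hoxc8 (0.965), and both Hox genes also had their reads in E20/p53 4 to 6 and none in 1 to 3. Wfdc2 was followed by Arhgef3 (0.985), Ptgr1 (0.985) and Rad51b (0.984). Those 3 genes were highest in WT and next in E20/p53 1 to 3, as Wfdc2 was, but with a smaller change, since Ptgr1 had 189.9 CPM in WT, 185 CPM in E20/p53 libraries 1 to 3 and 83.4 CPM in libraries 4 to 6. Likewise Slc5a7 was followed by Aldh2 (0.980), Plekhh2 (0.980) and Tle1 (0.978), Gpr149 by Ap3b1 (0.985), Xpc (0.983) and Nr6a1 (0.978), Cck by Pdp1 (0.984) and Kcnh2 (0.980), and Slc14a1 by Stard10 (0.962), Vstm5 (0.952) and Sgms2 (0.95).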

How the data were processed

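mRNA was sequenced in 18 libraries of mouse esophagus and tongue, grouped by the labels. The library kit was TruSeq Stranded mRNA LT, per the labels' protocols. Per the submitters' processing notes, bcl2fastq 1.8.4, Trimmomatic and featureCounts were used with the build mm10. No aligner, annotation or scaling method is named in those notes; each is not given in the sources used here. As deposited, the authors' values are on a log2 scale, where 1 is added to the reads and the sum is divided by a scaled total of the library (0.939 to 1.12 times the reads). They returned whole reads, to within 0.001, for 100% of values, and CPM was computed from those reads. No 2 columns were identical.

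The 7 genes, the lists and the sets of 3 libraries were chosen with earlier results of these data known. limma 3.58.1 in R 4.3.3 was run on the deposited log2 values with a mean-variance trend, 1 mean per group over all 18 libraries and 14 residual degrees of freedom. It was also run on simulated data. The simulated libraries held no sets of 3 within a group, so that check cannot speak for the error rate in these data. Genes with 0.635 CPM (10 reads at the median depth) in at least 3 libraries and 15 reads in all were tested, and Benjamini-Hochberg adjustment ran over those 15235 genes. Folds pool reads over a group, with exact 95% intervals, and a group at 0 takes a floor of 3 reads. Genes are named by rule: the 7 genes, for each the 3 with the highest Pearson r among named genes with at least 5 CPM in some library, up to 5 of each family by level, and up to 3 of each marker list with defining genes at 0. A few genes under this rule are not reported here. Bche, Padi1, Padi3, Pax8 and Cckbr, and the genes named from the shared profile beyond its classes, were picked after their values were seen. Alternatives were other scaling, filters, pseudocount, a replicate block, voom weights, a fit of the compared groups alone, single libraries left out, single sets, set means and a 2-fold minimum.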

Additional observations from a re-analysis of the deposited data

Results flagged for a closer look

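Slc5a7 in E20 stood apart in 1 library. Library 2 held 3 reads (0.175 CPM) and the other 5 held 0, so its gap to the others was the whole range of the group (a ratio of 1). Of 11 gene and group combinations of 6 libraries with any spread, 1 stood apart. A group with reads in a single library always gives a ratio of 1, so the ratio says nothing beyond those 3 reads and no chance rate is set beside it.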

How the results depend on the processing

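Over the single-gene differences and the alternatives run, 380 kept direction and side of the threshold, 50 lost a call, 13 gained one and 12 reversed. The cause of these changes was not tested unless fewer samples entered the fit. The reversals were Padi4 against E20 with voom weights (-0.06), with E20/p53 libraries 1 to 3 (-1.29), with E20 libraries 1 to 3 (-0.7), without E20 replicate 5 (-0.19) or 6 (-0.18) and without E20/p53 replicate 4 (-0.18), 5 (-0.26) or 6 (-0.26), within a range of -0.26 to 0.3 over all single libraries left out, and against p53 with E20/p53 libraries 1 to 3 (-0.83). With E20/p53 libraries 4 to 6, Wfdc2 turned to -1.05 against E20 and -0.77 against p53, and Gpr149 to -0.28 against E20. Genes called over the whole table (3292 lower than WT, 3502 higher than E20, 1960 higher than p53) became 0, 0 and 0 with 6 set means and 1592, 1014 and 567 with a 2-fold minimum, and those higher than p53 became 4766 with E20/p53 libraries 1 to 3. Of the 7 genes, those lower than WT became 0 with set means. Those higher than E20 (2) became 4 with E20/p53 libraries 1 to 3, 0 with set means, and 1 with the stricter filter, with the compared groups alone and with a 2-fold minimum. Those higher than p53 (3) became 0 with set means and 1 with the stricter filter, with log2 of CPM plus 1 and with the compared groups alone. Leaving out 1 library at a time gave 2540 to 3390, 3165 to 3644 and 1111 to 2358 genes, and 6 to 7, 2 to 4 and 1 to 3 of the 7. Kept from 25% of WT, 1 of the 7 (Wfdc2) counted as kept, and doubling the WT limit and dividing the other by 2 left 5 genes of the 28.

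The deviations of libraries with the same replicate number correlated at 0.04 to 0.07 between E20/p53 and E20. The E20/p53 deviations correlated at 0.0 with WT and at -0.02 to 0.02 with p53. These values cannot decide whether replicate numbers pair the samples. The sets within E20 and within E20/p53 differ across many genes, and that difference can dominate the deviations. A replicate block gave 3253 genes higher than p53. It also gave Wfdc2 adjusted p-values of 0.113, 0.0327 and 0.0106 against WT, E20 and p53, and Gpr149 0.0642 against p53. No call of the other 5 genes changed.

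Depth limits the low values. With 1 read worth about 0.0625 CPM, levels of Pax2, Padi4 and Cck outside WT rest on at most 15 reads a group, so a level below about 3 reads was not detectable, and 0 reads does not show absence. Another scaling (median of ratios) moved the median of all genes by at most 0.06 on the log2 scale.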

Other observations

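The mesothelium and endothelium lists have not yet been described. Msln, a gene of mesothelium that other epithelia also express, was 427 CPM in WT, 147 CPM in the first E20/p53 set (libraries 1 to 3) and 4.84 CPM in the second, and made most of the mesothelium list (422 to 445 CPM in WT), in which Muc16 and Calb2 had 0 reads in WT. In p53 Msln stood at 94.6 CPM, where Wfdc2 had at most 0.326 CPM. Endothelium markers stayed low, with sums from 1.69 to 5.8 CPM over all 18 libraries, and Emcn had 0 reads in WT.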
